A study of Mus musculus with 98 samples.

Results

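The comparison described here set 3 RNA-seq libraries of mouse hippocampal neurons with raised ACSS2 and 14 days of exposure to hAD-tau against 3 libraries of the same kind of neurons given PBS, all harvested on day 21 of culture. The 6 libraries were chosen by their titles, from 98 in the series, and entered 1 fit with the 6 day 21 libraries that carried the control virus, so that 12 libraries were fitted. The study asked what raised ACSS2 does to gene expression in neurons, in aging and under tau. Cells were primary embryonic hippocampal neurons of CD1 mice, an outbred strain. A PhP.eB virus, carrying Acss2 (upACSS2) or no insert named in the labels (vector), was added on day 5 for 48 hours and washed off on day 7, when hAD-tau or PBS was added. The 4 groups of 3 libraries were upACSS2 with hAD-tau, upACSS2 with PBS, vector with hAD-tau and vector with PBS. All of them had therefore received a virus. The labels name no promoter for the viral Acss2 and do not spell out hAD-tau. They also do not say whether replicates came from separate cultures, so p-values measure only the spread between these libraries, which may be technical. For upACSS2 with PBS the treatment entry of the labels names hAD-tau and contradicts the title; the title was followed.

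ACSS2 makes acetyl-CoA from acetate in the cytosol and the nucleus, where acetyl-CoA is the donor for histone acetylation and a building block of lipids. Tau is a microtubule-binding protein of axons that forms aggregates in Alzheimer's disease, and added tau aggregates can be taken up by cultured neurons. Hippocampal cultures from embryos also hold astrocytes and cells of the oligodendrocyte lineage, which grow in number over weeks. In a bulk library fewer cells of a type and less RNA per cell cannot be told apart.

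Library totals ran from 17386121 to 31199403 counts over the 12 libraries. Levels are given as CPM, counts scaled to the TMM-adjusted size of each library and not to gene length. Acss2 stood at 3672, 4656 and 3801 CPM in the upACSS2 libraries with hAD-tau (replicates 1 to 3) and at 2483, 2275 and 4339 CPM with PBS, against 46.6 to 59.6 CPM in the 6 vector libraries. Both upACSS2 groups lay wholly above the vector groups (exact permutation test, two-sided, p = 0.1 each, the smallest that 3 against 3 can give). Between hAD-tau and PBS the Acss2 levels overlapped (exact permutation test, two-sided, p = 0.3), with PBS replicate 3 among the hAD-tau libraries. The part of the Acss2 level in the differences below was not tested. Neuronal markers (12 genes, among them Rbfox3 and Tubb3) summed to 7979 to 8521 CPM with hAD-tau and 6416 to 8415 CPM with PBS, and astrocyte markers (14 genes) to 7453 to 13609 and 5174 to 8068 CPM, so both cell types were present. Markers of microglia summed to no more than 18.7 CPM, and the endothelial marker Cldn5 had no count in the 6 libraries. The share of counts on Rn45s, the precursor of ribosomal RNA, was 0.708% to 0.926% with hAD-tau but 7.93%, 1.89% and 0.619% in PBS replicates 1, 2 and 3. It was thus higher in 2 of the 3 PBS libraries than in any hAD-tau library. For some lists below, medians are also given from a fit with this share as a covariate, chosen after the data were seen. The part of Rn45s as a cause of the differences was not tested.

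No gene passed the adjusted threshold of 0.05 among 14639 tested in the 12-library fit (0% called; edgeR's quasi-likelihood test, Benjamini-Hochberg adjustment, lowest adjusted p 0.73). At an unadjusted p under 0.05, 571 genes (3.90%) were higher with hAD-tau and 360 (2.46%) lower. All 3 hAD-tau libraries lay above all 3 PBS libraries for 8.70% of genes and below them for 8.72%. In counts simulated for this comparison, the same test recovered 75% of 100 genes changed 2-fold and 95% of 100 changed 4-fold. The changed genes had a mean of at least 1 CPM, and noise was drawn independently for each gene and library. Shifts shared by many genes of a library, as described below, were not simulated, so these shares do not give the recovery in the real libraries. DESeq2, run on the same 12 libraries, called 11 genes. With all 24 unstimulated libraries of days 9 and 21 sharing 1 estimate of the spread, edgeR called 8 genes among 14863 (0.0538%), 5 that rose and 3 that fell. The biological coefficient of variation, a measure of spread, was 0.135 in that fit, against 0.189 for day 21 libraries and 0.042 for day 9. Adjusted p-values of the 24-library fit thus use a spread below that of the day 21 libraries. There 2278 genes had an unadjusted p under 0.05 by edgeR, against 931 in the 12-library fit. The 8 are all among the 11 of DESeq2, the other 3 being Gjb6, Trhr and Orai3. Leaving out hAD-tau replicate 3 from the 12-library fit led to 1 call, Tac1, which was lower.

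The 5 genes that rose in the 24-library fit were Angptl4, Ucp2, Pcbd1, Nod1 and Baalc. Angptl4 (chromosome 17, 33773750 to 33781830, GRCm38), which codes for a secreted inhibitor of lipoprotein lipase, had 7.75, 4.58 and 13.2 CPM with hAD-tau and 2.31, 1.81 and 2.10 CPM with PBS. Ucp2 (chromosome 7, 100493337 to 100502020), a carrier of the mitochondrial inner membrane, had 11.3, 8.82 and 19.7 CPM with hAD-tau and 3.33, 2.03 and 4.68 CPM with PBS. In both genes replicate 3 of hAD-tau was the highest library, and the groups did not overlap. The log2 fold change was 2.04 (SE 0.44) for Angptl4 and 1.99 (SE 0.46) for Ucp2 in the 12-library fit, with an adjusted p of 0.0496 each in the 24-library fit by edgeR. Pcbd1 (chromosome 10, 61089331 to 61094324), which codes for an enzyme that recycles tetrahydrobiopterin, had 2.71, 2.17 and 3.35 CPM against 1.11, 0.903 and 0.631 CPM. Nod1 (chromosome 6, 54923949 to 54972612), a cytosolic sensor of bacterial cell wall fragments, had 6.56, 4.10 and 5.72 CPM against 2.56, 2.30 and 2.52 CPM. Neither gene stood high in replicate 3 alone. Baalc (chromosome 15, 38933144 to 38952912), a gene expressed in neural tissue, was the most abundant of the 5, with 94.8, 83.8 and 93.7 CPM against 59.5, 57.0 and 65.6 CPM. Its log2 fold change was 0.58 (SE 0.11), with the lowest adjusted p of the 8, 0.0196 in the 24-library fit by edgeR.

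The 3 genes that fell in that fit were Septin11, Insm1 and 3110082J24Rik. Septin11 (chromosome 5, 93093437 to 93176447) codes for a filament-forming GTP-binding protein of the cytoskeleton. It had 129, 139 and 146 CPM with hAD-tau and 174, 179 and 165 CPM with PBS, a log2 fold change of -0.32 (SE 0.09). Insm1 (chromosome 2, 146221921 to 146225020), a zinc finger factor of neuronal and neuroendocrine differentiation, had 2.38, 2.51 and 2.79 CPM against 4.74, 4.70 and 4.94 CPM, a log2 fold change of -0.90 (SE 0.18). Its spread within each group was small beside the gap between them. The gene 3110082J24Rik (chromosome 5, 30103584 to 30106086) had 0.396, 0.626 and 0.604 CPM against 1.71, 3.66 and 1.42 CPM. Ucp2, Baalc and 3110082J24Rik overlap a gene on the other strand (Dnajb13, Gm49097 and Garem2), and no strand setting for the counting is given in the sources used here, so reads of the partners cannot be told apart.

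The vector libraries show where each upACSS2 group stood. For Baalc the vector libraries had 69.0, 74.9 and 75.5 CPM with hAD-tau and 72.9, 69.2 and 91.7 CPM with PBS, above all 3 upACSS2 libraries with PBS and, for 5 of 6, below all 3 with hAD-tau. For Septin11 they had 123 to 140 CPM, near the upACSS2 libraries with hAD-tau, and the upACSS2 libraries with PBS stood above. For Insm1 the 6 vector libraries had 3.73 to 4.99 CPM, near the upACSS2 libraries with PBS. Pcbd1 had 1.77 to 2.97 CPM in the vector libraries, above all 3 upACSS2 libraries with PBS.

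**Figure D1:**
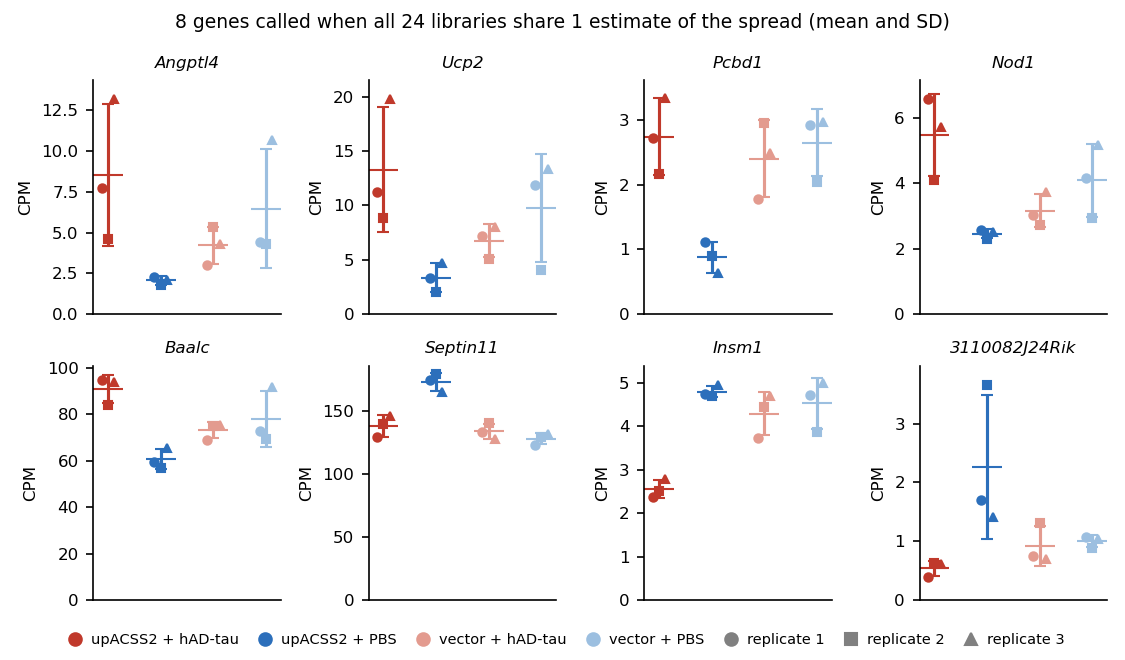
CPM of the 8 genes in the 12 day 21 libraries, by group (colour) and replicate (symbol), with mean and SD of 3 libraries. In each gene the upACSS2 groups with hAD-tau and PBS do not overlap, while the vector groups do.

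The other leading genes were taken by a rule: 12 genes at the upper and 12 at the lower end of the log2 fold change, out of those with an unadjusted p under 0.01, a mean log2 CPM of at least 1 and groups that do not overlap. Of 110 genes that met it, 75 were higher and 35 lower. None of the 24 passed the adjusted threshold in the 12-library fit, and since this contrast chose them, their values are a description. Several of the 12 higher genes are known from astrocytes and extracellular matrix. Lcn2, a secreted lipocalin of reactive astrocytes, had 3.68, 2.94 and 36.6 CPM with hAD-tau and 1.37, 0.452 and 1.05 CPM with PBS. Its log2 fold change of 3.91 (SE 1.06) was 1.78 without hAD-tau replicate 3. S100a4, a calcium-binding protein, had 12.6, 11.8 and 43.4 CPM against 8.37, 2.44 and 6.41 CPM. Galnt15, an enzyme of O-linked glycosylation, had 3.39, 2.84 and 12.1 CPM against 2.31, 1.08 and 1.21 CPM. In these 3 genes replicate 3 of hAD-tau stood far above the other libraries. Gjb6, which codes for the astrocyte gap junction protein connexin 30, was steadier, with 7.75, 6.31 and 12.96 CPM against 2.39, 1.94 and 2.84 CPM. DESeq2 gave Gjb6 an adjusted p of 0.0192. The matrix genes Bgn (biglycan) and Col6a1 (a chain of type VI collagen) did not peak in replicate 3: Bgn had 15.9, 10.2 and 15.4 CPM against 2.31, 1.26 and 6.41 CPM, and Col6a1 had 12.3, 13.5 and 13.1 CPM against 5.47, 3.88 and 4.73 CPM. Capg (an actin-capping protein), Col2a1 (type II collagen), Pdlim1 (an actin-associated adaptor) and Nrsn2 (a neuronal vesicle protein) completed the 12 beside Angptl4 and Ucp2, with log2 fold changes of 2.05, 1.91, 1.51 and 1.42.

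**Figure D2:**
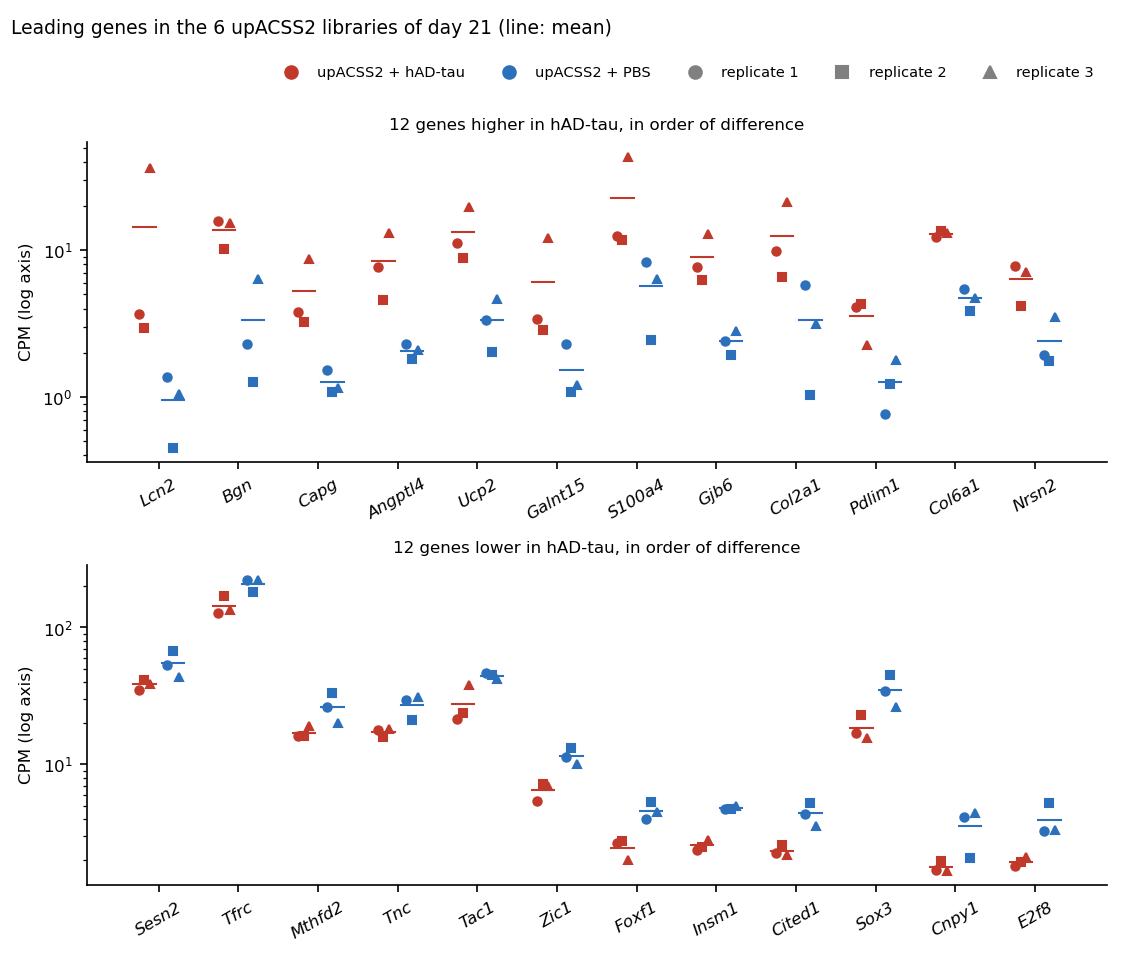
CPM (log axis) of the 24 leading genes in the 6 upACSS2 libraries, 12 higher (top) and 12 lower (bottom) with hAD-tau; symbols mark replicates and lines the means. Replicate 3 of hAD-tau is the highest library for Lcn2, S100a4 and Galnt15, while Col6a1 and Insm1 show little spread within groups.

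The 12 lower genes hold 2 genes of the response to amino acid and organelle stress. Mthfd2, a mitochondrial enzyme of folate metabolism, had 16.1, 16.1 and 18.9 CPM with hAD-tau and 26.2, 33.2 and 19.9 CPM with PBS. Sesn2, a stress-induced inhibitor of mTORC1, had 35.1, 41.6 and 38.5 CPM against 53.6, 67.8 and 43.3 CPM. In both, PBS replicate 3 lay just above the hAD-tau libraries and PBS replicates 1 and 2 lay further off. Tfrc, the transferrin receptor for iron uptake, had 128, 171 and 135 CPM against 223, 182 and 221 CPM. Tac1, the precursor of the neuropeptide substance P, had 21.5, 23.6 and 38.1 CPM against 46.3, 45.2 and 41.7 CPM. For Tac1 hAD-tau replicate 3 was the one close to PBS, and without it the log2 fold change went from -0.68 (SE 0.18) to -0.98, with an adjusted p of 0.0342 by edgeR. Transcription factors made up 5 of the 12. Sox3, a factor of neural progenitors, had 17.1, 22.8 and 15.5 CPM against 34.6, 44.8 and 26.1 CPM. The others were Zic1 (-0.82), Foxf1 (-0.90), Insm1 (above) and E2f8 (-1.01), an E2F-family repressor, given as log2 fold changes. Tnc (tenascin C, a matrix protein), Cited1 (a transcriptional coactivator) and Cnpy1 had log2 fold changes of -0.65, -0.91 and -0.98. Of the 24 leading genes, Ucp2, Galnt15, Nrsn2, Tnc, Zic1, Foxf1 and E2f8 overlap an annotated gene on the other strand. Among other genes named in the text, the same holds for Acss2, Shmt2, Slc2a1, Ndrg1, Hk2, Car9, Plin4, Ehhadh, Pparg and Ifi35. It also holds for Gfap, Aqp4, Olig1, Mog, Mki67, Top2a, Sox4, Ctsz, Dusp1, Mapt and Pdgfra.

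Gene lists, chosen with earlier results of these data known, were described by counts and medians, beside all genes tested. Of all genes tested 50.7% were higher with hAD-tau, and their median log2 fold change was 0.00 (0.004 before rounding). The unfolded protein and integrated stress response list holds the factors and enzymes that cells raise when protein folding in the endoplasmic reticulum or amino acid supply fails. Of its 28 genes, 26 were lower with hAD-tau, with a median of -0.25, and none passed the adjusted threshold. Of the 28, 6 had an unadjusted p under 0.05 by edgeR, all lower, and 9 had hAD-tau libraries that lay wholly below PBS. Of all genes tested, 2.46% were lower at that p and 8.72% lay wholly below PBS. Ddit3, a pro-apoptotic factor of this response, had 26.2, 30.0 and 24.3 CPM with hAD-tau and 40.1, 52.3 and 31.2 CPM with PBS. Hspa5, the main chaperone of the endoplasmic reticulum, had 337, 390 and 344 CPM against 493, 439 and 405 CPM. Shmt2, a mitochondrial serine and folate enzyme that overlaps Ndufa4l2 on the other strand, had 43.7, 43.7 and 42.1 CPM against 55.4, 69.5 and 48.3 CPM. The order was the same in each: PBS replicate 3 was the lowest PBS library and still above the hAD-tau libraries. Calr, a calcium-binding chaperone, overlapped, with 405, 492 and 391 CPM against 571, 546 and 453 CPM. With PBS replicate 3 as the only PBS library, a comparison chosen after the data were seen, 22 of the 28 were still lower but the median was -0.09. In the vector libraries 11 of the 28 were lower with hAD-tau, with a median of 0.11. The interaction of tau and virus was below zero for 22 of the 28, and 12 of those had an unadjusted p under 0.05 by edgeR, with no adjusted call (median -0.33; -0.34 and 24 of 28 without vector PBS replicate 3). At that p, 326 of all 14639 genes tested had an interaction below zero.

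Genes of this response carry known elements before their start, so their promoters were searched. In the RefSeq promoter table (GRCm38.p6), which holds 11569 of the tested genes, the 250 bases before the start were searched on both strands for the letters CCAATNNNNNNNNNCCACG (the endoplasmic reticulum stress element). They held it in 7 of 26 genes of the list (26.9%) and in 19 of all 11569 (0.164%). The amino acid response letters TGATGNAA were in 5 of 26 (19.2%) and in 277 of all (2.39%). Of the 19 genes with the stress element, 12 were lower with hAD-tau (63.2%, median -0.08), against 49.9% of all 11569 genes, and 7 were lower in the vector libraries (36.8%). The 7 of them on the list were all lower and are counted above, while of the other 12 genes 5 were lower and 7 higher. Of the 277 genes with the amino acid response letters, 135 were lower (48.7%), close to all genes. Promoters of Calr (chr8:84846935-84847181, minus strand) and Creld2 (chr15:88819396-88819645, plus strand), which codes for a secreted protein of the endoplasmic reticulum, are printed as examples chosen after the values were seen. They run 5′ to 3′, end before the first annotated exon base, and have the element, here on the opposite strand, in capitals.
Calr: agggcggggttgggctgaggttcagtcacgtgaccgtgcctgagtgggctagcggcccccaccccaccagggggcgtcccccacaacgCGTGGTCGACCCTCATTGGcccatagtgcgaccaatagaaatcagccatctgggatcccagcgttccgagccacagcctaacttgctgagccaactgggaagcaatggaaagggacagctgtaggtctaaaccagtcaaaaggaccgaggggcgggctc
Creld2: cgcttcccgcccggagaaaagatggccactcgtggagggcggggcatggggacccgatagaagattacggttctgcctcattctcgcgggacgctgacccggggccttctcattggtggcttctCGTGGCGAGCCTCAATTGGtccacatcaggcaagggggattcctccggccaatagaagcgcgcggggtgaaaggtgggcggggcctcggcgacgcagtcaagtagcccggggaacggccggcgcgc
The element ends 144 bases before the RefSeq start in Calr and 108 bases before it in Creld2. Creld2 had 9.90, 11.5 and 13.6 CPM with hAD-tau and 15.6, 16.1 and 11.1 CPM with PBS, a log2 fold change of -0.29 (SE 0.19), so its groups overlapped.

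Glycolysis and the targets of hypoxia-inducible factor (HIF), which raises glucose uptake and glycolytic enzymes when oxygen is low, formed a list of 33 genes. Of these 32 were higher with hAD-tau, with a median of 0.52. None passed the adjusted threshold. An unadjusted p under 0.05 by edgeR was found for 5, against 3.90% of all genes in this direction: Slc2a1, Pdk1, Egln1, Egln3 and Ndrg1. Slc2a1, the glucose transporter GLUT1, had 90.9, 76.6 and 78.7 CPM with hAD-tau and 33.6, 25.2 and 67.8 CPM with PBS. Pdk1, a kinase that restrains pyruvate dehydrogenase, had 118, 106 and 71.7 CPM against 39.5, 36.2 and 89.6 CPM. Hk2, an inducible hexokinase, had 26.2, 32.7 and 9.57 CPM against 4.44, 2.30 and 21.2 CPM. In all 3 genes PBS replicate 3 was the highest PBS library, and in Pdk1 and Hk2 it exceeded hAD-tau replicate 3. Egln3, an oxygen-sensing prolyl hydroxylase and itself a HIF target, had 22.5, 21.7 and 14.96 CPM against 7.35, 6.55 and 15.3 CPM. Ndrg1, a stress-responsive gene, had 28.3, 32.7 and 20.9 CPM against 6.75, 7.81 and 16.6 CPM. Car9, a carbonic anhydrase known as a HIF target, had 7.63, 4.67 and 4.83 CPM against 0.171, 0 and 3.42 CPM. The list's summed level was 13709, 13318 and 11662 CPM against 8630, 9187 and 11844 CPM, in the reverse order of the Rn45s share within PBS. With PBS replicate 3 alone as the PBS group the median was 0.12 and 28 of 33 were higher, and with the log2 Rn45s share as a covariate it was 0.35 and 30 of 33 were higher, both chosen after the data were seen. In vector neurons 29 of the 33 were higher with hAD-tau, with a median of 0.47, and the interaction was above zero for 16 and below for 17 (median -0.05).

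The letters ACGTG, the core of the element that HIF binds, were in 18 of the 31 promoters found for this list (58.1%) and in 2865 of the 11569 (24.8%), searched in the same 250 bases on both strands. Of all 2865 genes with these letters 1424 were higher with hAD-tau, with a median of -0.00, close to all genes. Promoters of Egln3 (chr12:54203875-54204124, minus strand), Hk2 (chr6:82774455-82774704, minus strand) and Ldha (chr7:46845554-46845803, plus strand; lactate dehydrogenase A) show how often the letters can occur, here in capitals on either strand.
Egln3: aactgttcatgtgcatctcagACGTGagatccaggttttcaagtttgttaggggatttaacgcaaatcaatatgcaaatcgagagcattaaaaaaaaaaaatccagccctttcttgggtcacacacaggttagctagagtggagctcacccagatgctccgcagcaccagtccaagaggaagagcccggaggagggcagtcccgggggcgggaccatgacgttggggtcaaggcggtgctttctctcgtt
Hk2: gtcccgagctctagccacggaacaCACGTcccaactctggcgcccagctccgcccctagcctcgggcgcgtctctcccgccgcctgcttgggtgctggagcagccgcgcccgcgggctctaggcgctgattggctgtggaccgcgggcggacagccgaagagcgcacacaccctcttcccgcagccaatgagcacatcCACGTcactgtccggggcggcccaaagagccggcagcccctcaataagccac
Ldha: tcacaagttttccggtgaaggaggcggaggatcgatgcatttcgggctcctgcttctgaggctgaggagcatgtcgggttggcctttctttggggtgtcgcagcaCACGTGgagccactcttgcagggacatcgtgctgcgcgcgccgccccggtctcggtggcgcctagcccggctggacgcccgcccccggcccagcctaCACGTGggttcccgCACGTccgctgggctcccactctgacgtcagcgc
Ldha has 5 matches, of which 4 are 2 overlapping pairs read on both strands. It had 904, 946 and 659 CPM with hAD-tau and 416, 448 and 810 CPM with PBS, again with PBS replicate 3 among the hAD-tau libraries.

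PBS replicate 3 stood with the hAD-tau libraries, or beyond them, in 3 further lists. All 21 tested genes of sterol synthesis and uptake were higher with hAD-tau, with a median of 0.24 and no unadjusted p under 0.05 by edgeR. Their sum was 4179, 4032 and 3527 CPM with hAD-tau and 2719, 2304 and 4919 CPM with PBS, so PBS replicate 3 was the highest of the 6. Against that library alone all 21 were lower, with a median of -0.29, and without it all 21 were higher, with a median of 0.66, while leaving out PBS replicate 1 or 2 gave 0.11 and 0.07. Of 32 synaptic genes 30 were higher, with a median of 0.16, and their sum was 24349, 22351 and 19509 CPM against 16686, 17902 and 22375 CPM. Against PBS replicate 3 alone 9 of the 32 were higher, with a median of -0.04. All 33 tested genes for cytosolic ribosomal proteins were lower with hAD-tau, with a median of -0.23. Their sum was 6047, 6683 and 6392 CPM against 7825, 8535 and 6276 CPM, and against PBS replicate 3 alone the median was 0.00, with 19 of 33 higher. With the Rn45s covariate the medians of the sterol, synaptic and ribosomal lists were 0.07, 0.00 and -0.07. In vector neurons the 3 medians were 0.33 (16 of 21 higher), 0.32 (31 of 32 higher) and -0.11 (29 of 33 lower). In the stimulated upACSS2 libraries they were 0.74 (21 of 21 higher), 0.30 (28 of 32 higher) and -0.12 (32 of 33 lower). In the upACSS2 libraries of day 9 they were 0.06, -0.00 and 0.02.

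**Figure D3:**
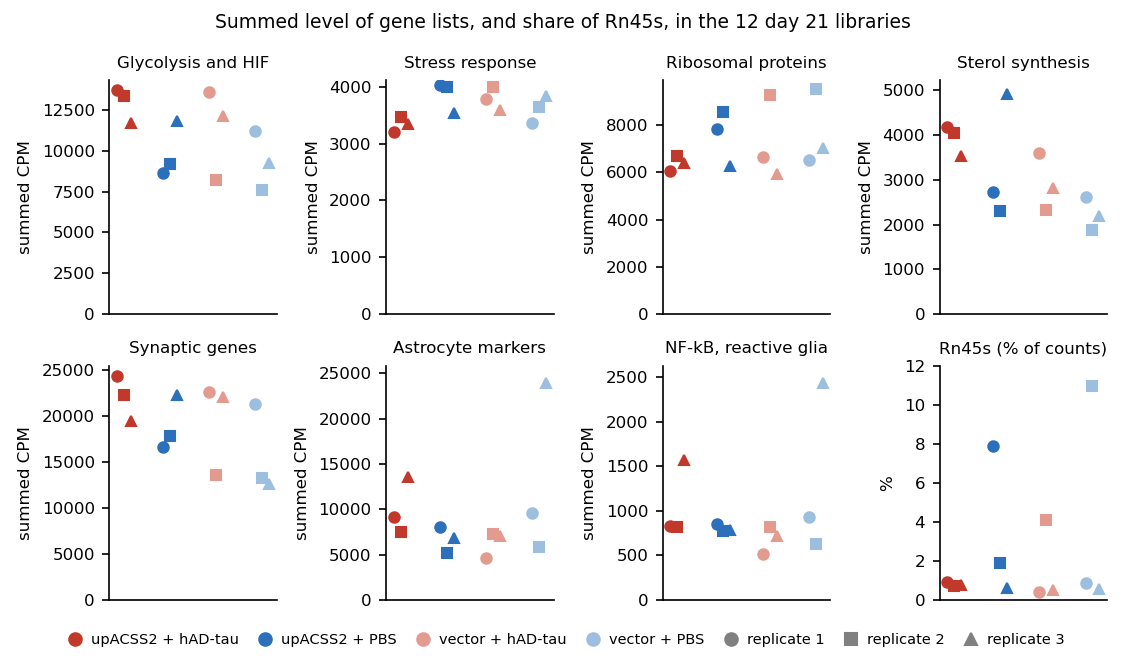
Summed CPM of 7 gene lists and the share of counts on Rn45s in the 12 day 21 libraries, by group (colour) and replicate (symbol). PBS replicate 3 of upACSS2 (dark blue triangle) lies among the hAD-tau libraries (red) for glycolysis, synaptic genes and ribosomal proteins, and hAD-tau replicate 3 is highest of the 6 for astrocyte markers and reactive glia genes.

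Fatty acid oxidation and the targets of PPAR, nuclear receptors that switch on lipid use, gave a mixed list. Of 32 tested genes 22 were higher, with a median of 0.13, and 7 had an unadjusted p under 0.05 by edgeR, all higher, among them Angptl4, Ucp2, Pdk4, Plin4, Ehhadh and Pparg. All 7 had groups that did not overlap. In the list 9 genes lay wholly above PBS and 1 wholly below, against 8.70% and 8.72% of all genes. Of all genes 3.90% were higher at that unadjusted p. Pdk4, a kinase that restrains pyruvate dehydrogenase, had 8.60, 7.61 and 21.7 CPM with hAD-tau and 6.54, 5.69 and 3.94 CPM with PBS. Ehhadh, an enzyme of peroxisomal fatty acid oxidation, had 1.75, 1.25 and 1.72 CPM against 0.726, 0.497 and 0.841 CPM. These genes were at low levels beside the summed level of the list, which overlapped between the groups: 1098 to 1305 CPM with hAD-tau and 1065 to 1224 CPM with PBS. Pparg, the receptor best known from fat cells, had 0.651 to 1.11 CPM against 0.299 to 0.420 CPM. Without hAD-tau replicate 3 the median of the list was 0.02, with 17 of 32 higher. In vector neurons 27 of the 32 were lower with hAD-tau, with a median of -0.32, but without vector PBS replicate 3 the median was -0.03, with 20 of 32 lower.

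Targets of NF-kB and genes of reactive glia were measured for 20 of 28 written, because the other 8, among them Il6, Tnf and Ccl2, had at most 12 counts in any of the 6 libraries. Of the 20, 19 were higher with hAD-tau, with a median of 0.67. An unadjusted p under 0.05 by edgeR was found for 7, all higher, against 3.90% of all genes in this direction. Steap4, a metalloreductase induced by inflammatory signals, had 1.36, 0.723 and 17.7 CPM against 0.385, 0.181 and 0.263 CPM. C3, the central complement component, had 2.54, 2.65 and 15.1 CPM against 1.45, 0.949 and 0.894 CPM. C4b, another complement gene, had 98.7, 67.8 and 120 CPM against 49.3, 33.2 and 46.3 CPM. Without hAD-tau replicate 3 the log2 fold change of Steap4 went from 4.55 to 1.87 and that of C3 from 2.61 to 1.23, while that of C4b went from 1.15 to 0.95. C4b and Serpina3n have near-identical copies in the mouse genome between which reads may have been split. Without hAD-tau replicate 3 the median was 0.35, with 14 of 20 higher, and without PBS replicate 1 it was 1.01. Interferon-stimulated genes, which cells raise against viruses, were higher for 18 of 21 tested, with a median of 0.25 (0.42 without PBS replicate 2). Of these Ifi35 had 2.04, 1.59 and 3.11 CPM against 0.983, 0.949 and 0.788 CPM, and Bst2 had 0.905, 0.675 and 2.09 CPM against 0.342, 0.271 and 0.526 CPM.

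Astrocyte markers moved with these genes. Of 14 markers 13 were higher, with a median of 0.31, and Gjb6 alone had an unadjusted p under 0.05 by edgeR. Gfap, the intermediate filament of astrocytes, had 3849, 3060 and 7333 CPM with hAD-tau and 3541, 1668 and 2439 CPM with PBS, and Aqp4, the astrocyte water channel, had 466, 397 and 735 CPM against 384, 115 and 340 CPM. The summed markers were highest in hAD-tau replicate 3 (13609 CPM), where Lcn2, Steap4 and C3 also peaked, and lowest in PBS replicate 2 (5174 CPM). The part of astrocyte content in the reactive and interferon lists was not tested. Of 14 oligodendrocyte lineage markers 10 were lower, with a median of -0.48. Olig1, a lineage factor, had 491, 497 and 545 CPM against 751, 863 and 692 CPM, whereas Mog and Mobp, genes of myelin, were higher (log2 fold changes 1.44 and 2.54) at no more than 18.4 CPM. The median of this list was 0.01 with the Rn45s covariate and 0.12 without PBS replicate 1, the library with the highest summed level (4226 CPM). Dividing-cell and progenitor markers were lower for all 10, with a median of -0.56, and PBS replicate 2 was high. Mki67, a marker of cycling cells, had 40.5, 43.3 and 46.0 CPM against 29.9, 117 and 40.7 CPM, and without that library the median was 0.13. Of the microglia markers 11 were tested and 11 were higher (median 1.53), at sums of 9.48 to 18.7 CPM with hAD-tau and 6.84 to 9.20 CPM with PBS; without hAD-tau replicate 2 the median was 0.70, with 9 of 12 higher. Tmem119 had at most 1 count in any of the 6 libraries. Of 8 endothelial, mural and meningeal markers 7 were higher (median 0.42, and 0.75 without PBS replicate 2; sum 28.8 to 42.7 CPM against 21.3 to 26.0 CPM), Lum among them with a log2 fold change of 0.98.

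**Figure D4:**
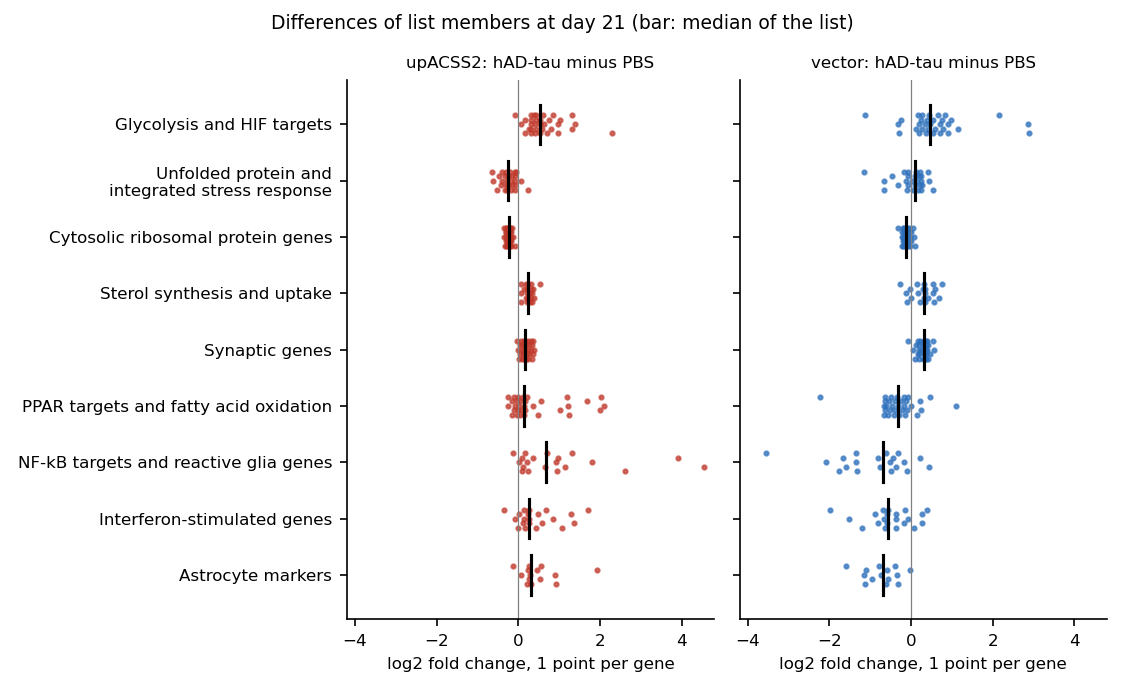
Log2 fold changes of list members, hAD-tau minus PBS on day 21, in upACSS2 (left) and vector (right) neurons, with 1 point per gene and a bar at the median of the list. Medians of the stress response lie at -0.25 and 0.11, those of glycolysis at 0.52 and 0.47, and those of the astrocyte markers at 0.31 and -0.68 (-0.06 without vector PBS replicate 3).

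Genes of tau and of neuronal structure differed little. In the list of tau, microtubule proteins and tau kinases 12 of 29 were higher, with a median of -0.02. Mapt, the mouse tau gene, had 488, 482 and 429 CPM with hAD-tau and 464, 488 and 485 CPM with PBS, a log2 fold change of -0.04 (SE 0.11), and 0.02 without hAD-tau replicate 3. Dcx, a microtubule protein of immature neurons, had 94.8, 111 and 78.9 CPM against 167, 115 and 135 CPM, so its groups did not overlap. Among 19 neuronal differentiation factors 10 were higher, with a median of 0.01. Of the 19, 3 factors had an unadjusted p under 0.05 by edgeR, all lower, against 2.46% of all genes. Besides Insm1 these were Sox4, with 187, 206 and 172 CPM against 362, 239 and 282 CPM, and Sox11, with 26.2, 28.0 and 32.4 CPM against 38.0, 41.0 and 33.4 CPM. Wfs1, a marker of CA1 neurons and a protein of the endoplasmic reticulum, was lower, with 18.4, 20.5 and 18.3 CPM against 24.1, 28.7 and 20.8 CPM. Among 10 septins, whose median was 0.04, Septin4 was on the other side of Septin11, with 15.1, 11.2 and 19.3 CPM against 9.91, 9.62 and 10.8 CPM.

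The remaining lists had medians between -0.08 and 0.23. Neuronal markers were higher for 9 of 12 (median 0.23, -0.05 against PBS replicate 3 alone) and hippocampal excitatory markers for 6 of 10 (0.08, and -0.03 without hAD-tau replicate 1). Genes of acetyl-CoA supply and use were higher for 12 of 18, with a median of 0.13, none of them with an unadjusted p under 0.05 by edgeR. Activity-induced genes were higher for 18 of 24, with a median of 0.18, and -0.06 without hAD-tau replicate 3. Btg2 and Ier2 were lower (-0.53 and -0.79) and Dusp1 higher (0.61). GABAergic markers were higher for 10 of 18 (median 0.05), heat shock proteins for 6 of 14 (-0.01), NRF2 antioxidant genes for 11 of 14 (0.13), lysosome and autophagy genes for 23 of 31 (0.07) and respiratory chain genes for 4 of 29 (-0.08, and -0.01 without PBS replicate 2). Without hAD-tau replicate 3 the NRF2 median was -0.02, with 6 of 14 higher, and the GABAergic median -0.07; the NRF2 median was 0.32 without PBS replicate 1 and 0.03 without PBS replicate 3. Ctsz, a lysosomal protease, had 15.5, 13.2 and 24.2 CPM against 10.2, 8.72 and 10.2 CPM.

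The vector neurons show the tau difference without raised ACSS2. Tau against PBS in the vector libraries called no gene, with 1361 (9.30%) at an unadjusted p under 0.05 by edgeR, and DESeq2 called 3. The interaction of tau and virus, which tests whether the tau difference itself differs between viruses, called no gene in edgeR (lowest adjusted p 0.54), with 1215 (8.30%) at an unadjusted p under 0.05, of which 889 were above zero, and DESeq2 called 3. Across 14639 genes, the tau differences with upACSS2 and with vector had a Pearson correlation of -0.08 and a Spearman correlation of 0.04, as a description, since genes are not independent. Several list medians lay on opposite sides of zero, and this rested in part on 1 library. Reactive glia genes had a median of 0.67 with upACSS2 and -0.69 with vector, interferon-stimulated genes 0.25 and -0.57, and astrocyte markers 0.31 and -0.68, where none of 14 was higher with vector. Vector PBS replicate 3 had the highest astrocyte marker sum of the 12 libraries (23891 CPM) and lay apart on the first principal component (31.4% of variance over the 2000 most variable genes). Gfap shows its weight, with 1411, 2899 and 2863 CPM in vector neurons with hAD-tau and 4969, 2249 and 14381 CPM with PBS. Without that library, a fit chosen after the data were seen, the vector medians were -0.07 for reactive glia, -0.04 for interferon-stimulated and -0.06 for astrocyte genes, and those of the interaction went from 1.52 to 0.84, from 0.85 to 0.36 and from 0.97 to 0.36. The stress response kept a vector median of 0.09 there, with 18 of 28 higher.

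A further 12 libraries of day 21, labelled as stimulated, gave the same contrast in a table of their own; the labels do not say how the neurons were stimulated. Among 14939 genes 31 (0.208%) passed the adjusted threshold in edgeR for hAD-tau against PBS with upACSS2, 28 that rose and 3 that fell, but leaving out 1 of the 6 libraries left 0 to 21, with more than 1 only without stimulated PBS replicate 3. All 24 leading genes had the same direction there, against 72.9% of 14579 genes in both sets and 92.5% of the 921 with an unadjusted p under 0.05 in the unstimulated set. Tac1 fell (-0.72, adjusted p 0.048 by edgeR), and the other 23 did not pass. Angptl4 had a log2 fold change of 1.03, Ucp2 1.09, Lcn2 1.85, Insm1 -0.79 and Septin11 -0.40 in the stimulated set. The stress response list was lower for all 28 genes, with a median of -0.27, and glycolysis was higher for 31 of 33, with a median of 0.62. In glycolysis Hk2 (2.99), Pfkl (1.20) and Pdk1 (1.26) rose, with adjusted p of 0.048, 0.047 and 0.047 by edgeR. Reactive glia genes were not higher there as a list, with 10 of 21 higher and a median of -0.00, and neither were astrocyte markers, with 4 of 14 higher and a median of -0.13. The Rn45s share was 0.393%, 0.545% and 0.384% in the stimulated upACSS2 libraries with hAD-tau and 0.538%, 0.741% and 0.658% with PBS. It was again mostly higher with PBS, over a narrower range. Acss2 stood at 3709, 4033 and 5462 CPM in the stimulated upACSS2 libraries with hAD-tau and at 2745, 2079 and 3485 CPM with PBS, without overlap. The parts of the Rn45s share and of the Acss2 level were not tested. Same-numbered stimulated and unstimulated upACSS2 libraries deviated together from their group means in 6 of 6 cases, with correlations across genes of 0.10 to 0.62. In the vector groups these correlations ran from -0.09 to 0.64, and vector hAD-tau replicate 1 correlated at 0.58 with another number. The labels do not say whether same-numbered libraries share cultures, so the stimulated set is not shown to be independent.

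**Figure D5:**
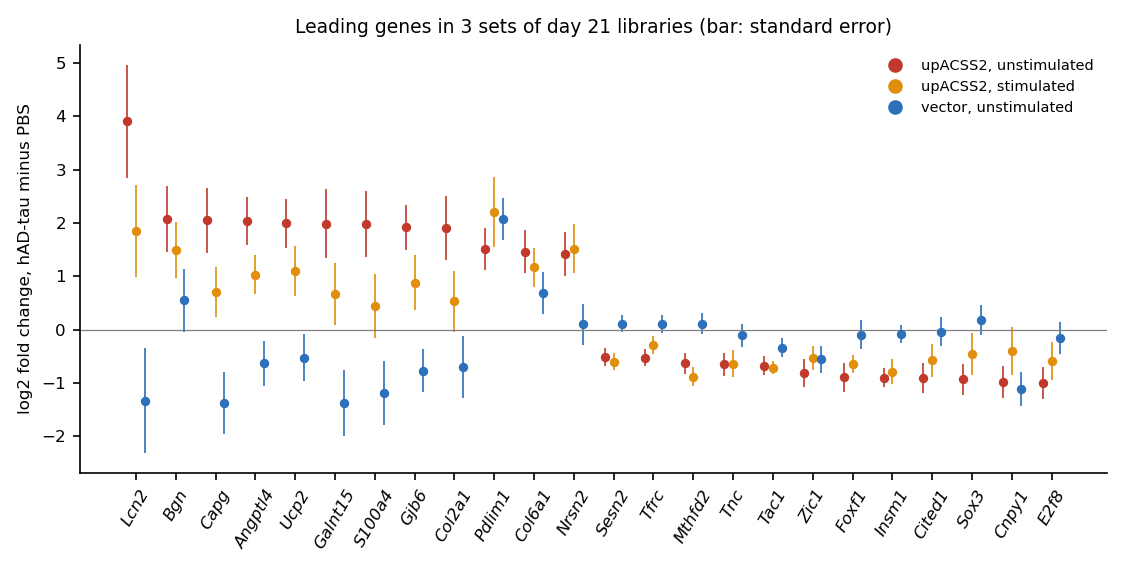
Log2 fold changes (hAD-tau minus PBS, with standard errors) of the 24 leading genes in unstimulated upACSS2, stimulated upACSS2 and vector libraries of day 21. All 24 lie on the same side of zero in both upACSS2 sets, and 12 of 24 do so with vector. The vector share was 54.1% over all genes and 48.3% over the 931 with an unadjusted p under 0.05 by edgeR in the unstimulated upACSS2 comparison.

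Day 9, after 2 days of exposure, gave the early side of the response. Among 14022 genes 49 (0.349%) passed in the upACSS2 libraries of day 9 by edgeR, 30 that rose and 19 that fell, where the biological coefficient of variation was 0.042 against 0.189 among day 21 libraries. Leaving out any 1 of the 6 libraries left 1 to 23 calls. Of the 20 leading genes measured on day 9, 11 had the same direction as on day 21, near the 55.2% of all 13859 genes. The share was 66.0% of the 802 genes with an unadjusted p under 0.05 by edgeR on day 21. Of the 20, Tfrc alone passed: it fell on day 9 (-0.29, adjusted p 0.00508 by edgeR). Gfap rose on day 9 (0.69, adjusted p 1.05e-05), as did Aqp4 (0.40, adjusted p 0.048) and Serpina3n (0.33, adjusted p 0.0159), and Olig1 fell (-0.32, adjusted p 0.0278), all by edgeR and all with the same sign on day 21. As a list, however, astrocyte markers were higher for only 4 of 13 on day 9, with a median of -0.02. Mapt fell slightly on day 9 (-0.19, adjusted p 0.0278 by edgeR). The stress response list was higher on day 9 for 23 of 28, with a median of 0.04, and glycolysis for 27 of 32, with a median of 0.07. In the stress response list 1 gene passed on day 9 by edgeR and rose, whereas 26 of 28 were lower on day 21. The NRF2 list also held 1 call that rose on day 9, and the activity-induced list 1 that fell. The interaction of tau and day in upACSS2 neurons, tested over 24 libraries, called no gene (0% of 14863, 744 at an unadjusted p under 0.05 by edgeR; DESeq2 called none), so no gene was shown to respond differently on day 21 than on day 9.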

How the data were processed

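Counts per gene symbol, whole numbers deposited by the authors, were used as deposited; per the submitters' processing notes STAR, featureCounts, HTSeq and DESeq2 were named with the mm10 build, without versions or roles. Per the labels' protocols, RNA came from Trizol and column extraction and went into libraries by an NEB kit. Groups came from titles. The 12 unstimulated day 21 libraries were fitted with edgeR 4.0.16 (R 4.3.3; TMM, filterByExpr, quasi-likelihood F test with 8 residual degrees of freedom, Benjamini-Hochberg adjustment over all genes tested at 0.05, two-sided). DESeq2 1.42.0 was an alternative. The standard error is the log2 fold change divided by the root of F. The edgeR step was checked on simulated counts of 14540 genes, drawn independently for each gene and library, where 11 of 181 calls were false. Coordinates are from GENCODE vM21 (GRCm38), promoters from RefSeq. Members, the 25 gene lists and the rules were chosen with earlier results of these data known. Named genes were Acss2, the genes called in the 24-library fit, the 24 leading genes, and from each list the first 2 written, the extremes and those with an unadjusted p under 0.05; Creld2, Ldha, Hk2, Pfkl, Trhr and Orai3 were named after their values were seen. Libraries of 1 group differed by more than sampling noise, with a lowest chi-square per gene of 6.42 in the 6 upACSS2 libraries. Alternatives were RLE size factors, no filter, a replicate block, other sets of libraries and each library left out; the Rn45s covariate, PBS replicate 3 alone and the lists without vector PBS replicate 3 were chosen after seeing the data. Some genes that met the rule are not reported here.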

Additional observations from a re-analysis of the deposited data

How the results depend on the processing

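For hAD-tau against PBS with upACSS2 on day 21, edgeR called 0 genes with TMM, RLE size factors, no filter, only the 6 libraries, or the Rn45s share as a covariate, while DESeq2 called 11 and the fit of 24 libraries 8. Leaving out 1 of the 12 libraries gave 0 to 1. DESeq2 called 3 genes for the interaction of tau and virus and 3 for vector neurons, against 0. For the interaction of tau and day, leaving out 1 of the 12 upACSS2 libraries gave 0 to 1. On day 9 the count of 49 became 201 with no filter and 81 with DESeq2, and 1 to 23 with a library left out. In stimulated neurons the count of 31 became 110 with no filter, 453 with DESeq2 and 487 with a replicate block, and 0 to 21 with a library left out. The replicate block, alone or with only the 6 libraries, called 0 genes in the main comparison. Same-numbered libraries correlated at -0.21, 0.14 and -0.18 there (-0.12, 0.10 and 0.16 in stimulated, 0.04, 0.10 and -0.02 on day 9). Over all pairs of the day 21 groups these correlations ran from -0.47 to 0.56. They cannot show whether the numbers pair the samples, and the labels do not say. Of 86 genes run through the alternatives, 80 had the same sign under all of them. Many of these genes were named because of this same contrast, which favours a kept sign. The 24 leading genes, chosen for groups that do not overlap, all kept theirs. The share over all genes was not computed, so the count does not measure stability. Leaving out 1 upACSS2 library moved Mapt between -0.0737 and 0.0180, Mki67 between -0.87 and 0.30, Top2a between -0.83 and 0.30 and the median of proliferating markers between -0.83 and 0.13, the upper values without hAD-tau replicate 3 for Mapt and without PBS replicate 2 for the rest. With PBS replicate 3 alone as the PBS group, Mki67 and Top2a also changed sign (0.0786 and 0.17), as did Acss2 (-0.11) and Creld2 (0.0528), and Pdgfra did so with the Rn45s covariate (0.00486). With PBS replicate 3 alone, list medians turned for ribosomal genes (0.00472), neuronal markers (-0.0467), acetyl-CoA (-0.02), activity-induced (-0.07), respiratory chain (0.02) and neuronal differentiation (-0.10) genes, beside the sterol and synaptic lists given above. The cause of these changes was not tested. Counting depth limits genes under about 1 CPM, and the 1 PBS library left in the comparison with replicate 3 alone is assumed to vary like the other groups.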
